A study of Mus musculus with 2 samples.

Results

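Resident-like macrophages with RNA of Cd163, Folr2 and Lyve1 were described in a subcutaneous tumour of 4T1, a mouse breast cancer line. The series holds 1 single-cell library from wild-type mice treated with PCN (the series title names the treatment PATCH) and 1 from wild-type mice given PBS in its place. The counts analysed here were those of the PCN library, and counts of the PBS library were not analysed here, so every value below is from the PCN library and no effect of the treatment can be read from it. How many animals or tumours stand behind each library is not given in the sources used here. No replicates and therefore no tests were available, and the intervals (95%) cover counting error only: exact Clopper-Pearson for shares, exact Poisson for levels and the exact conditional interval for ratios.

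The members were chosen from their own counts of unique molecular identifiers (UMIs, 1 per captured RNA molecule). Among the cells that the authors kept, a cell had to hold under 2% of its UMIs in the neutrophil genes S100a8, S100a9, Csf3r and G0s2 and 0.3% or more in C1qa, C1qb, C1qc and Apoe. It also had to hold 3 or more UMIs of Cd163, Folr2 and Lyve1 together and under 10 UMIs of the interferon-induced genes Cxcl9, Cxcl10, Cxcl11 and Rsad2. This gave 910 of 10835 kept cells, 8.4% (7.88 to 8.94%), and 25.5% of the 3574 cells that passed the C1q and Apoe gate. The other 2664 gated cells are the comparison throughout. Resident-like cells had a median of 8689 UMIs and 2943 genes, against 7210.5 UMIs and 2544 genes in other gated cells, and median mitochondrial shares were 2.33% and 2.36%. The summed UMIs were 8305122 in resident-like cells and 21209646 in other gated cells.

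Macrophages that live in a tissue for long periods take up debris, haemoglobin and dying cells, and many carry a shared set of surface scavenger receptors. CD163 takes up haemoglobin bound to haptoglobin, FOLR2 is the beta folate receptor, and LYVE1 binds hyaluronan and is also known from lymphatic endothelium. In many mouse tissues, LYVE1-positive macrophages lie along blood vessels and carry little MHC class II, while macrophages made from newly arrived monocytes often carry more MHC class II and inflammatory cytokines. C1q, the first component of complement, and ApoE, a lipid carrier, are made by macrophages of both kinds.

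The 3 gate genes were unevenly spread among the members. Their sum had a lower quartile of 4, a median of 6, an upper quartile of 11 and a maximum of 63 UMIs per cell. Just inside the threshold lay 178 members with 3 UMIs, and just outside it 293 cells with 2 UMIs, 543 with 1 and 1672 with 0 (all under the interferon limit). The interferon limit removed 15 cells, and 5 members held 7 to 9 interferon UMIs while 790 held none. Of the members, 164 lay between 0.3% and 0.6% for C1q and Apoe, and 13 between 1% and 2% for the neutrophil genes. A further 147 cells passed every limit except the C1q and Apoe gate, and 10 passed all but the neutrophil limit. The threshold therefore cuts a falling distribution with no gap.

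**Figure D1:**
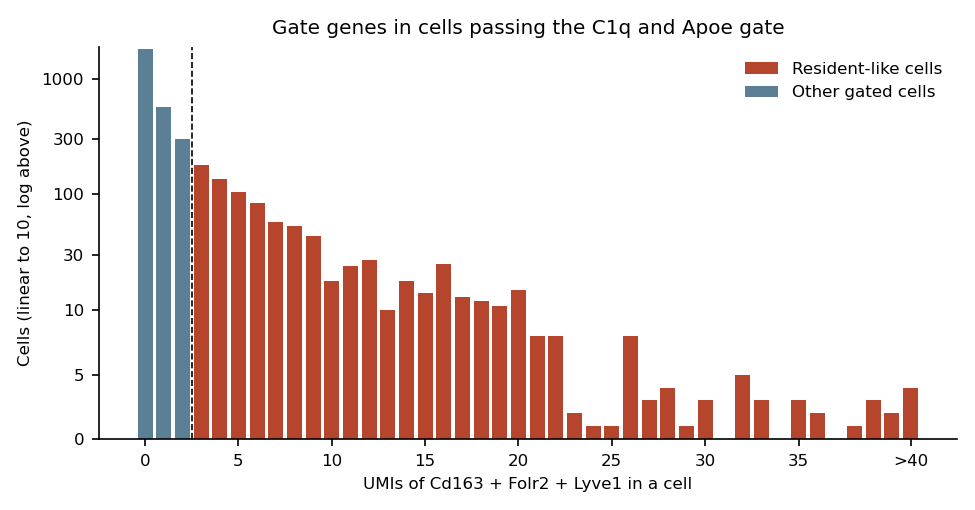
Number of cells (y axis, linear up to 10 and logarithmic above) by the summed UMIs of Cd163, Folr2 and Lyve1 in the cell (x axis), in resident-like cells (red) and other gated cells (blue), without the 15 cells removed by the interferon limit. The dashed line marks the threshold of 3 UMIs; the last bar holds the 4 members above 40 UMIs, and no gap separates the 178 members at 3 UMIs from the cells below.

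The 3 gate genes marked overlapping but not identical cells. Folr2 was detected in 804 of 910 members (88.4%), Cd163 in 575 (63.2%) and Lyve1 in 246 (27.0%). Cd163 and Folr2 without Lyve1 was the most frequent combination, with 357 members, followed by Folr2 alone with 218, all 3 genes with 116, Folr2 and Lyve1 with 113, Cd163 alone with 89, Cd163 and Lyve1 with 13 and Lyve1 alone with 4. Median depth was 7879 UMIs in members with 1 of the genes, 8793 in members with 2 and 10295.5 in members with all 3. Their summed levels, in counts per 1000000 UMIs of the set (CPM), were 413 for Cd163, 410 for Folr2 and 126 for Lyve1 in resident-like cells, against 13.6, 44.1 and 4.10 CPM in other gated cells. These values only restate the gate.

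Among neutrophils, which should lack these genes and so show the level of free RNA, 0.320% had a UMI of Cd163, 1.02% of Folr2 and 0.232% of Lyve1, at a median of 1697 UMIs per cell. After each cell was thinned to 1000 UMIs, Cd163 was detected in 29.0% of resident-like cells, 2.66% of other gated cells and 0.102% of neutrophils. Thinned shares for Folr2 were 32.0%, 5.59% and 0.512% in these 3 sets. Lyve1 stood at 8.90% of resident-like cells, 0.704% of other gated cells and 0.0341% of neutrophils. Thinning left out no resident-like cell, 107 other gated cells and 512 neutrophils with fewer UMIs.

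Of the label's own markers, Ccl8, Mrc1 and Selenop took no part in the gate, but they were chosen with earlier results of these data known and are given as a description. Ccl8 encodes a chemokine that attracts monocytes and lymphocytes. A resident-like cell held a median of 5 Ccl8 UMIs (quartiles 0 and 26, maximum 625), against a median of 0 in other gated cells (quartiles 0 and 1, maximum 282). Its level was 2681 CPM in resident-like cells and 331 CPM in other gated cells, a ratio of 8.11 (7.90 to 8.33). The ranges overlapped, and Ccl8 was detected in 646 of the 910 members. Mrc1, the mannose receptor CD206, had a median of 15 UMIs in resident-like cells (quartiles 6 and 26) and 3 in other gated cells (quartiles 1 and 8). Summed, Mrc1 stood at 2103 and 752 CPM, a ratio of 2.80 (2.74 to 2.86). Selenop, a secreted selenium carrier, had a median of 9 UMIs in resident-like cells (quartiles 4 and 17) and 2 in other gated cells (quartiles 0 and 4), at 1382 and 395 CPM and a ratio of 3.5 (3.4 to 3.6). Unlike Ccl8, both were detected in nearly every member, Mrc1 in 888 and Selenop in 886. In neutrophils a UMI of Ccl8 was found in 7.38%, of Mrc1 in 3.98% and of Selenop in 4.68% of cells.

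The 4 general macrophage genes given here differed by less than 2-fold between the sets. Csf1r, the receptor for the macrophage growth factor CSF1, stood at 207 CPM in resident-like cells and 236 CPM in other gated cells, a ratio of 0.875 (0.827 to 0.924). Adgre1, which encodes the F4/80 antigen, stood at 300.1 and 203 CPM, a ratio of 1.48 (1.41 to 1.55). Mertk, a receptor for dying cells, had a ratio of 1.20 (1.13 to 1.27), and Trem2, a lipid receptor, 1.24 (1.19 to 1.30). These 4 genes were picked after their values were seen, so they do not show how macrophage genes in general differ. The gate genes C1qa, C1qb, C1qc and Apoe had ratios between 0.973 and 1.09, and both sets had to pass that gate.

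A gene counted as above when its level in resident-like cells was at least 2 times that of other gated cells, and as below at 0.5 times or less. Of 8689 genes with 200 or more UMIs over both sets, 237 were above (2.73%) and 380 below (4.37%), and the median log2 ratio over all of them was 0.08. The counts of genes above and below in each list are to be read beside these shares. When each cell was given equal weight in place of its UMIs, 150 genes were above and 383 below, so genes above made up 28.1% of those called in place of 38.4%.

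Genes known from resident macrophages stood together. Of the 24 genes on that list, 18 had enough UMIs; 16 of these were above and none below, with a median log2 ratio of 1.71 against 0.08 over all genes. The list was drawn up with earlier results of these data known. Ltc4s, the leukotriene C4 synthase, lay higher without reaching 2-fold, at 180 and 102 CPM in resident-like and other gated cells.

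Cd5l, a secreted protein that binds lipids and is made by tissue macrophages, had the highest ratio of the genes ranked. The ranking left out gate genes and mitochondrial, ribosomal protein, immunoglobulin, T cell receptor segment and predicted genes. It was found in 123 of 910 resident-like cells and in 47 of 2664 other gated cells. Its level was 71.4 CPM in resident-like cells and 5.0 CPM in other gated cells, a ratio of 14.3 (11.6 to 17.7). The level came from few cells: 36 members with 5 or more UMIs held 444 of the 593 UMIs, and the highest cell alone held 68.

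Cbr2, a carbonyl reductase, stood at 119 and 19.2 CPM in resident-like and other gated cells (ratio 6.20; 5.52 to 6.98). Clec10a, a galactose-type lectin receptor, stood at 181 and 29.7 CPM (ratio 6.12; 5.57 to 6.73). Wfdc17, a small secreted protein that shares sequence with Wfdc18, had a median of 16 UMIs per resident-like cell against 2 per other gated cell, and stood at 3614 and 619 CPM (ratio 5.83; 5.72 to 5.96). Neutrophils held still more Wfdc17, 5056 CPM, and the part of free neutrophil RNA in its ratio was not tested. The summed neutrophil markers were 928 CPM in resident-like cells and 1081 CPM in other gated cells. These markers include S100a8, S100a9, Csf3r and G0s2, which the gate limited in both sets, so the sums cannot measure that part. Gas6, a protein that bridges dying cells to the receptors AXL and MERTK, stood at 359.9 and 80.2 CPM (ratio 4.48; 4.22 to 4.76). Igf1, insulin-like growth factor 1, stood at 42.4 and 9.01 CPM (ratio 4.71; 3.94 to 5.64), and Pf4, platelet factor 4, at 5350.4 and 2054 CPM (ratio 2.61; 2.57 to 2.64).

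Some genes that mark particular resident populations were nearly absent. Timd4, a phosphatidylserine receptor of long-lived macrophages, had 17 UMIs in 10 resident-like cells and 29 UMIs in 15 other gated cells, or 2.05 and 1.37 CPM. Vsig4, a complement receptor, had 33 UMIs in 9 resident-like cells and 5 in 5 other gated cells. Cd209f had 2 UMIs in each set, and Marco, a scavenger receptor, none in resident-like cells, where 3 counts, the limit that a count of 0 allows, correspond to 0.361 CPM. None of the 4 had enough UMIs for a ratio.

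The 25 highest genes also included receptors and an adhesion protein. Ednrb, the endothelin B receptor, was detected in 679 members and stood at 592 and 96.2 CPM in resident-like and other gated cells (ratio 6.15; 5.84 to 6.48). Cd36, a receptor for fatty acids and oxidised lipoproteins, was detected in 511 members and stood at 457 and 98.8 CPM (ratio 4.62; 4.38 to 4.88). Tns1, a focal adhesion protein, stood at 79.6 and 13.01 CPM (ratio 6.12; 5.31 to 7.06). Serpinb6a, a protease inhibitor, stood at 417 and 78.3 CPM (ratio 5.32; 5.02 to 5.65). Also among the 25 highest genes, with ratios between 4.31 and 5.99, were Adamtsl5, Sel1l3, Cnrip1, Fxyd2, Stxbp6, Slc39a12, Nrcam, Wfdc18, Lyz1, Mctp2, Pgap6, Fgfr1, Stard8 and Npl. Lyz1 shares much of its sequence with Lyz2, which stood at 9072 and 7061 CPM, so reads may have been split between them, and 1 member held 18% of its 200 UMIs.

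**Figure D2:**
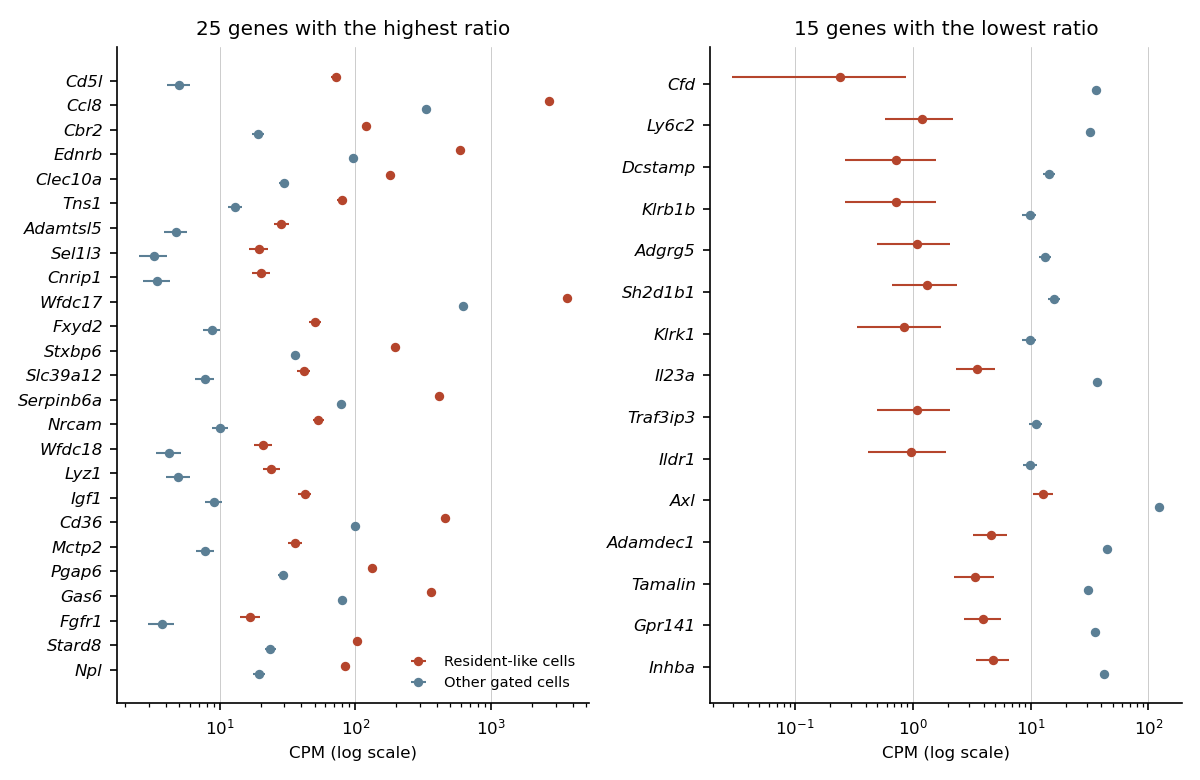
Levels in CPM (x axis, log scale) of the 25 genes with the highest ratio (left) and the 15 with the lowest (right) among the genes ranked, in resident-like cells (red) and other gated cells (blue), with exact Poisson 95% intervals as bars. Cd5l leads the genes above, and Cfd and Ly6c2 lead the genes below, where the resident-like intervals are wide because few UMIs were counted.

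At the other end, Ly6c2, the classical monocyte antigen, had 10 UMIs in resident-like cells and 682 in other gated cells, 1.20 and 32.2 CPM and a ratio of 0.0374 (0.0179 to 0.0693). Dcstamp, a cell fusion protein of osteoclasts and giant cells, had 6 and 304 UMIs. Axl, a receptor for dying cells that GAS6 binds, was detected in 55 of 910 resident-like and 980 of 2664 other gated cells and stood at 12.8 and 122 CPM (ratio 0.104; 0.0851 to 0.127). Resident-like cells were thus high in the ligand Gas6 and low in the receptor Axl, while Mertk, the related receptor, lay near equal. Inhba, the activin A subunit, stood at 4.82 and 42.3 CPM (ratio 0.114; 0.0807 to 0.156), and Adamdec1, a secreted metalloprotease, at 4.58 and 44.2 CPM (ratio 0.104; 0.0728 to 0.143). The other low genes were Klrb1b, Adgrg5, Sh2d1b1, Klrk1, Il23a, Traf3ip3, Ildr1, Tamalin and Gpr141, with ratios between 0.0737 and 0.112. Cfd, complement factor D, had the lowest ratio of the genes ranked, 2 UMIs against 762. However, 11 other gated cells held all 762 and 1 of them 388 (50.9%), so the value rests on very few cells.

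Promoters are shown for Cd163 and Folr2, 2 of the 3 genes that define the members, and for Ccl8 and Cd5l, the leading genes outside the gate, because Maf, a transcription factor that binds the motif TGCTGA, was itself above (596 CPM in resident-like cells and 287 CPM in other gated cells, ratio 2.08; 2.0 to 2.16). The third gate gene, Lyve1, has no entry in the RefSeq promoter table. Each runs from 250 bases before to 50 bases after the RefSeq start on build GRCm38.p6, 5′ to 3′ on the gene's strand, and capitals mark TGCTGA or its reverse complement TCAGCA. Which build the deposited counts used is not given in the sources used here; these sequences are RefSeq's. For Folr2 the first of 2 listed starts is shown.

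Cd163, chr6:124304401-124304700, plus strand: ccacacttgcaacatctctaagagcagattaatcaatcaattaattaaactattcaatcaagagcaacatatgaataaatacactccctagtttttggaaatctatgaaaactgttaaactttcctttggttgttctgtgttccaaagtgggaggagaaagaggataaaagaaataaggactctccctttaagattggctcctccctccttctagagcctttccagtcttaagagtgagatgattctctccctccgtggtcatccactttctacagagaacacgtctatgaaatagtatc
Folr2, chr7:101857141-101857440, minus strand: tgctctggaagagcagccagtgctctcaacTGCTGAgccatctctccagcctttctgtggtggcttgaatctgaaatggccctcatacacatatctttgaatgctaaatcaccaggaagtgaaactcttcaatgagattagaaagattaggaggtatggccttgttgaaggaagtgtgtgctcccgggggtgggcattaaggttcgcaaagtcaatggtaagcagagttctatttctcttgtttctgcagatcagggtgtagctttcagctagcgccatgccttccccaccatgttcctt
Ccl8, chr11:82114935-82115234, plus strand: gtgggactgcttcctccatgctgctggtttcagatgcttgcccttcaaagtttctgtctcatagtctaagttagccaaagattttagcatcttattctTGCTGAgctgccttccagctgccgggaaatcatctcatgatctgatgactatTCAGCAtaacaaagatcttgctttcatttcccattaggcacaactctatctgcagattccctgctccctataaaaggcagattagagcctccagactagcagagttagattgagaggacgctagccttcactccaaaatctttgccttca
Cd5l, chr3:87357631-87357930, plus strand: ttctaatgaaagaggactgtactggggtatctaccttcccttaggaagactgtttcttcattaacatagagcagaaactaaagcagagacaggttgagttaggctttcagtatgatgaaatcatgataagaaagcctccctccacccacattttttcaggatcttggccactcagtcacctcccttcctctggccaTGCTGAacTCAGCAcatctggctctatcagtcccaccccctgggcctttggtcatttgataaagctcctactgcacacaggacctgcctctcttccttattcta

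The Ccl8 and Cd5l promoters held the motif on both strands, that of Folr2 held it on the gene's own strand, and the Cd163 window held no match. Of the 25 highest genes, 21 had a promoter entry, and 8 of these (38.1%) held the motif in at least 1 listed window. Of the 15 lowest genes, 11 had an entry and 1 (9.09%) held it. Over all 27025 genes in the RefSeq table the share was 21.7%, and over all 32851 promoters 19.5%. A match of 6 letters is a description of the sequence and not a binding site, and no match says only that these letters are missing from this window.

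The levels of many genes went on shifting with the gate genes on both sides of the threshold. From 0, 1 and 2 summed gate UMIs to 3, 4, 5 to 9, 10 to 19 and 20 or more, Ccl8 stood at 129, 513, 969.7, 1363, 1739, 2364, 4241 and 3709 CPM. Mrc1 stood at 627, 1068, 1205, 1439, 1608, 1942, 2792 and 2832 CPM in the same order. Il1b, which encodes interleukin-1 beta, ran the other way, with 2874, 1496, 1112, 631, 421, 309.8, 193 and 114 CPM. H2-Aa, the alpha chain of an MHC class II molecule, stood at 601, 296, 295, 128, 125, 103, 47.4 and 44.2 CPM. Axl stood at 144 CPM in cells without gate UMIs and 2.10 CPM in cells with 20 or more.

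As a ratio of neighbouring levels, Ccl8, Mrc1, Selenop, Cbr2 and Il1b differed more between 1 and 0 gate UMIs than across the threshold, between 3 and 2. The step across the threshold was wider for H2-Aa, at 128 CPM at 3 UMIs and 295 CPM at 2, than at any other place of its run. Axl stood at 24.7 CPM at 3 UMIs and 60.3 CPM at 2, and Mmp12, a macrophage elastase, at 41.3 and 145 CPM. Of the 8 genes plotted, 3 broke their run once, Ccl8 in the last bin and Axl and Mmp12 at 4 UMIs, with 32.8 and 97.5 CPM. Cd5l stood at 2.37 CPM at 0 UMIs, 23.9 CPM at 3 and 168 CPM at 20 or more. The median depth of the cells differed as well, from 7038.5 UMIs at 0 gate UMIs and 6865.5 at 3 to 11881 at 20 or more, and its part in these runs was not tested.

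**Figure D3:**
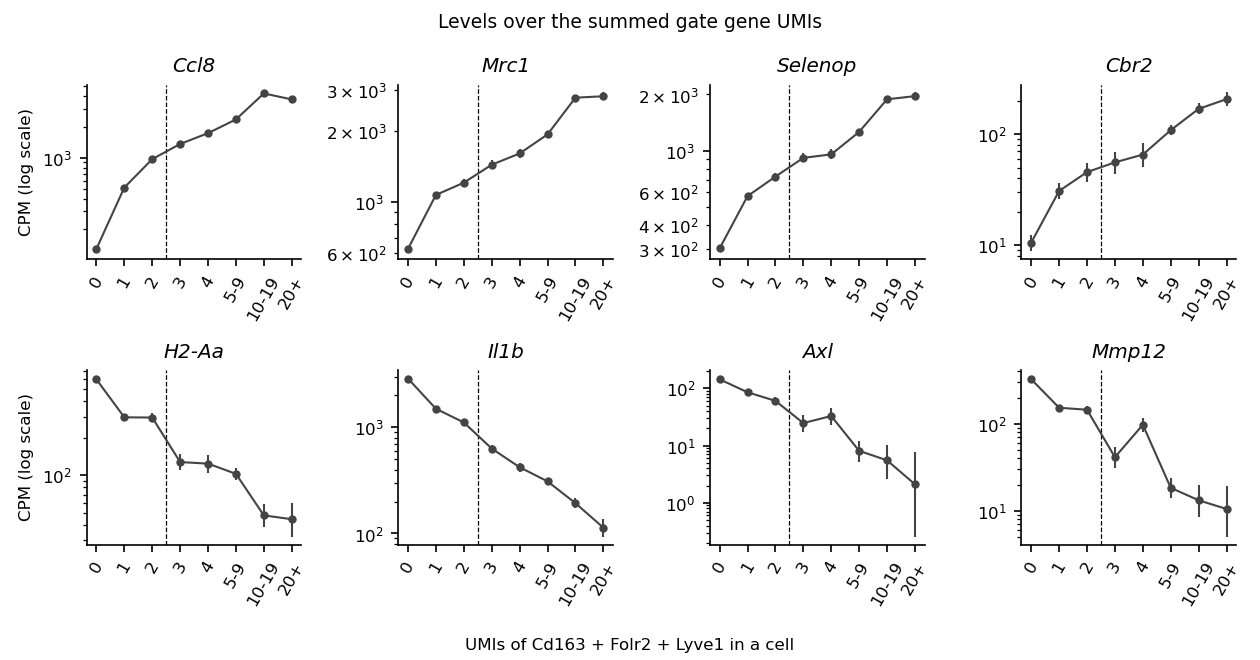
Levels in CPM (y axes, log scale) of 8 genes by the summed UMIs of Cd163, Folr2 and Lyve1 in a cell (x axes), over gated cells under the interferon limit, with exact Poisson 95% intervals; the dashed line separates resident-like cells (right) from other gated cells (left). Ccl8, Mrc1, Selenop and Cbr2 are higher and H2-Aa, Il1b, Axl and Mmp12 lower to the right; at the line H2-Aa stands at 128 CPM at 3 UMIs and 295 CPM at 2.

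MHC class II presentation stood lowest of the 22 gene lists. Of 12 genes, 8 entered; 7 were below and none above, with a median log2 ratio of -2.47. H2-Aa was detected in 161 of 910 resident-like cells and 789 of 2664 other gated cells. Its level was 91.1 CPM in resident-like cells and 583 CPM in other gated cells, a ratio of 0.156 (0.145 to 0.168). The other gated cells include cells over the interferon limit, and their part in the ratios of this list was not tested. Cd74, the invariant chain that chaperones MHC class II, stood at 190.4 and 922 CPM (ratio 0.206; 0.196 to 0.217). H2-DMb1 and H2-DMb2, which help load peptide and share sequence, had ratios of 0.119 and 0.127. The exception was Ifi30, a lysosomal thiol reductase, at 333 and 456 CPM (ratio 0.731; 0.701 to 0.763).

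Most cells of both sets held little MHC class II RNA. The median resident-like cell had 0% of its UMIs in H2-Aa, H2-Ab1, H2-Eb1 and Cd74, and the median other gated cell 0.0130%. At a limit of 0.5% of UMIs, set after the values were seen, 15 of 910 resident-like cells (1.65%; 0.925 to 2.70%) and 286 of 2664 other gated cells (10.7%; 9.59 to 11.97%) were MHC class II high. For neutrophils the share was 0.232%. After thinning, 5.27% of resident-like cells, 16.5% of other gated cells and 2.70% of neutrophils had a UMI of H2-Aa.

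Inflammatory cytokine genes were low. On the classical activation list, 19 genes entered, 10 were below and 1 above, with a median log2 ratio of -1.05. Il1b had a median of 0 UMIs in resident-like cells (upper quartile 1.75, maximum 83) and 6 in other gated cells (upper quartile 30, maximum 195). It stood at 329 and 2389 CPM, a ratio of 0.138 (0.133 to 0.143). Neutrophils held 9951 CPM of Il1b, and the part of their free RNA in these levels was not tested. Il1a stood at 107 and 749 CPM (ratio 0.144; 0.134 to 0.154), Il23a at 3.49 and 36.8 CPM (ratio 0.0949; 0.0632 to 0.137) and Nos2, the inducible nitric oxide synthase, at 1.69 and 14.2 CPM (ratio 0.119; 0.0642 to 0.202). Saa3, an acute-phase protein, was the one gene of the list above, at 998.5 and 419 CPM (ratio 2.38; 2.31 to 2.46).

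The genes listed here for alternative activation were not high in resident-like cells either. Of 18 genes on that list that entered, 8 were below and 1 above, with a median log2 ratio of -0.94. The result depends on how genes were sorted: Mrc1 and Clec10a were placed on the resident macrophage list, and were above at ratios of 2.80 and 6.12. Mmp12 stood at 30.3 and 259.7 CPM in resident-like and other gated cells (ratio 0.117; 0.103 to 0.133), Mgl2, a lectin receptor, at 3.61 and 24.9 CPM (ratio 0.145; 0.0969 to 0.210) and Il1r2, a decoy receptor for interleukin-1, at 18.1 and 107 CPM (ratio 0.170; 0.143 to 0.200). Il4ra, the interleukin-4 receptor, was the single gene above, at 262 and 129.8 CPM (ratio 2.02; 1.91 to 2.14). Arg1, arginase 1, lay between the limits at 744 and 1107 CPM. Clec10a and Mgl2 encode close relatives and lay at opposite ends, at ratios of 6.12 and 0.145.

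Monocyte genes were mostly lower, with 9 of 19 below, none above and a median log2 ratio of -0.996. Beside Ly6c2, F10, coagulation factor X, stood at 10.4 and 59.9 CPM in resident-like and other gated cells (ratio 0.173; 0.137 to 0.215), Hp, haptoglobin, at 10.1 and 64.8 CPM (ratio 0.156; 0.124 to 0.195) and Ly6a at 24.2 and 106 CPM (ratio 0.228; 0.196 to 0.263). Ccr2, the receptor that brings monocytes into tissue, had a ratio of 0.499 (0.466 to 0.535), at the limit. Other members lay higher without reaching 2-fold, among them the calcium-binding protein genes S100a4 at 564 and 313 CPM (ratio 1.80; 1.74 to 1.87), S100a6 at 2420.3 and 1355 CPM (ratio 1.79; 1.75 to 1.82) and S100a10 at 1613 and 879 CPM (ratio 1.84; 1.80 to 1.88). Among receptors, 24 entered, 1 was above and 2 below, the other low gene being Cx3cr1, the fractalkine receptor, at 43.8 and 203 CPM (ratio 0.216; 0.193 to 0.240). The receptor list had a median log2 ratio of -0.25.

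Chemokine genes went both ways. Of 18 that entered, 5 were above and 6 below, with a median log2 ratio of -0.60. Besides Ccl8 and Pf4, those above were Ccl6 (4491 and 1978 CPM in resident-like and other gated cells), Ccl9 (1659.7 and 769 CPM) and Ccl7 (2273 and 1125 CPM), all attractants of monocytes and other leukocytes. Below were Ccl5 at 3.61 and 27.6 CPM (ratio 0.131; 0.0876 to 0.189), Cxcl14 at 49.97 and 231 CPM (ratio 0.217; 0.195 to 0.239), Ccl4, Cxcl16 and the neutrophil attractants Cxcl2 and Cxcl3, with ratios between 0.394 and 0.484. The level of Cxcl2 was still 3311 CPM in resident-like cells, against 6973 CPM in other gated cells.

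Growth and vessel factors also divided. Of 17 genes, 2 were above and 6 below, with a median log2 ratio of -0.34. Above were Igf1 and Pdgfc, a platelet-derived growth factor, at 238 and 57.8 CPM in resident-like and other gated cells (ratio 4.11; 3.82 to 4.41). Below were Vegfa, the main vessel growth factor, at 76.7 and 233 CPM (ratio 0.329; 0.303 to 0.357), Ereg, the EGF receptor ligand epiregulin, at 10.8 and 41.6 CPM (ratio 0.261; 0.207 to 0.324), and Inhba, Areg, Osm and Hgf. Vegfa was also 1 of the 3 genes below among 21 genes of hypoxia and glycolysis, with Slc2a1, the glucose transporter GLUT1 (ratio 0.363; 0.320 to 0.410), and Hilpda, a lipid droplet protein (ratio 0.498; 0.480 to 0.517). None was above, and the median log2 ratio of the list was -0.55.

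Genes for iron and haem leaned higher. Of 17 that entered, 3 were above and 2 below, with a median log2 ratio of 0.46. Hmox1, haem oxygenase 1, which breaks down haem, had a median of 7 UMIs in resident-like cells (quartiles 3 and 15) and 2 in other gated cells (quartiles 0 and 4). It stood at 1822 and 902 CPM, a ratio of 2.02 (1.98 to 2.06). Tfrc, the transferrin receptor, stood at 43.5 and 12.97 CPM (ratio 3.35; 2.86 to 3.94) and Steap3, an iron reductase of endosomes, at 20.6 and 8.58 CPM (ratio 2.40; 1.94 to 2.97). Trf, transferrin itself, was below at 134 and 409 CPM (ratio 0.327; 0.307 to 0.348), as was haptoglobin. The iron exporter gene Slc40a1 had a low level in both sets, at 13.4 and 8.96 CPM.

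For the uptake of dying cells, 3 of 15 genes were above and 3 below, with a median log2 ratio of 0.04 against 0.08 over all genes. Pros1, protein S, is like GAS6 a ligand of AXL and MERTK and stood at 85.7 and 33.7 CPM in resident-like and other gated cells (ratio 2.54; 2.29 to 2.83). Stab1, a scavenger receptor, stood at 317 and 152 CPM (ratio 2.08; 1.98 to 2.19). Mfge8, another bridging protein, was below with Axl and Cd300lf, at 6.38 and 24.9 CPM (ratio 0.256; 0.190 to 0.340). Of 19 scavenger and C-type lectin receptors, 4 were above (Clec10a, Cd36, Mrc1 and Stab1) and 3 below (Mgl2, Clec7a and Clec4e), with a median log2 ratio of 0.02. Clec7a, the beta-glucan receptor dectin-1, stood at 48.5 and 237 CPM (ratio 0.205; 0.185 to 0.227).

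Of 21 lysosomal genes, 3 were above, all of them abundant proteases. The median log2 ratio of the list was 0.08, as over all genes. Ctsb, Ctsl and Ctsd encode cathepsins B, L and D. Ctsb stood at 5839 and 2484 CPM in resident-like and other gated cells (ratio 2.35; 2.32 to 2.38), Ctsl at 3596 and 1716 CPM (ratio 2.10; 2.06 to 2.13) and Ctsd at 3813 and 1838 CPM (ratio 2.07; 2.04 to 2.11). The other 18 genes of the list included Acp5, an acid phosphatase, below at 37.6 and 102 CPM, and none above. With equal weight for each cell the 3 cathepsins, and with them Maf, Pparg, Il4ra, Tsc22d3 and Fabp4, were under 2-fold, and Runx3, Hilpda and Hmgb2 no longer counted as below. Not every gene given as above or below was checked in this way, and Hmox1, Stab1 and Plin2 were not.

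Lipid genes had a median log2 ratio of 0.52, with 3 of 20 above and 2 below. Pltp, which transfers phospholipids between lipoproteins, stood at 156 and 48.4 CPM in resident-like and other gated cells (ratio 3.22; 2.97 to 3.5), and Plin2, which coats lipid droplets, at 1174 and 572 CPM (ratio 2.05; 2.0 to 2.11). Fabp4, a fatty acid carrier, stood at 101 and 43.8 CPM, but it followed the choice of cells: with a gate of 0.1% of UMIs in place of 3 UMIs its log2 ratio was -1.96 in place of 1.20. Cd9, a tetraspanin (ratio 0.301; 0.282 to 0.320), and Apoc2 (ratio 0.359; 0.331 to 0.388) were below.

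Among 24 transcription factors, 2 were above and 3 below, with a median log2 ratio of 0.23. Beside Maf, Pparg, a lipid-sensing nuclear receptor, was above at 11.7 and 5.28 CPM in resident-like and other gated cells (ratio 2.21; 1.67 to 2.93). Bhlhe40 at 87.2 and 209.6 CPM (ratio 0.416; 0.384 to 0.450), Runx3 at 63.5 and 143 CPM (ratio 0.444; 0.404 to 0.487) and Egr2 were below. Genes that glucocorticoids induce, a list that holds the gate gene Cd163, had a median log2 ratio of 0.54 against 0.08 over all genes. Of 15 that entered, 1 was above apart from Cd163: Tsc22d3, which encodes the inhibitory protein GILZ, at 351 and 165 CPM (ratio 2.13, 2.03 to 2.24). Sgk1, a kinase, was below (ratio 0.474; 0.448 to 0.502).

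Immune regulators had 6 of 16 below and none above, with a median log2 ratio of -0.52. Cd274, which encodes PD-L1, stood at 73.7 and 248 CPM in resident-like and other gated cells (ratio 0.297; 0.273 to 0.324), and Pdcd1lg2, which encodes PD-L2, at 2.05 and 8.72 CPM (ratio 0.235; 0.134 to 0.386). Of 19 matrix genes, Timp2, an inhibitor of matrix metalloproteases, was above at 959 and 252 CPM (ratio 3.80; 3.67 to 3.94), and 7 were below, among them Mmp12, Adamdec1 and Mmp13. Interferon genes outside the gate had 4 of 18 below and none above, with Isg15 at 28.9 and 80.0 CPM (ratio 0.361; 0.314 to 0.414). Members had been limited in interferon genes, so this restates part of the gate.

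Complement genes had none above and 3 of 12 below: Cfd, Itgax, which encodes CD11c (ratio 0.151; 0.102 to 0.217), and Cfb. The complement list had a median log2 ratio of -0.14. Of 20 cell cycle genes, Hmgb2 was below (ratio 0.470; 0.441 to 0.5) and none above, where 4.37% of all genes were below. The cell cycle list had a median log2 ratio of -0.34. Cells with 5 or more UMIs of 5 cycling genes made up 64 of 910 resident-like cells (7.03%; 5.46 to 8.89%) and 249 of 2664 other gated cells (9.35%; 8.27 to 10.5%). Immediate early genes, which tissue dissociation can induce, had a median log2 ratio of 0.09, close to that of all genes, with Egr3 the 1 gene of 20 below.

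**Figure D4:**
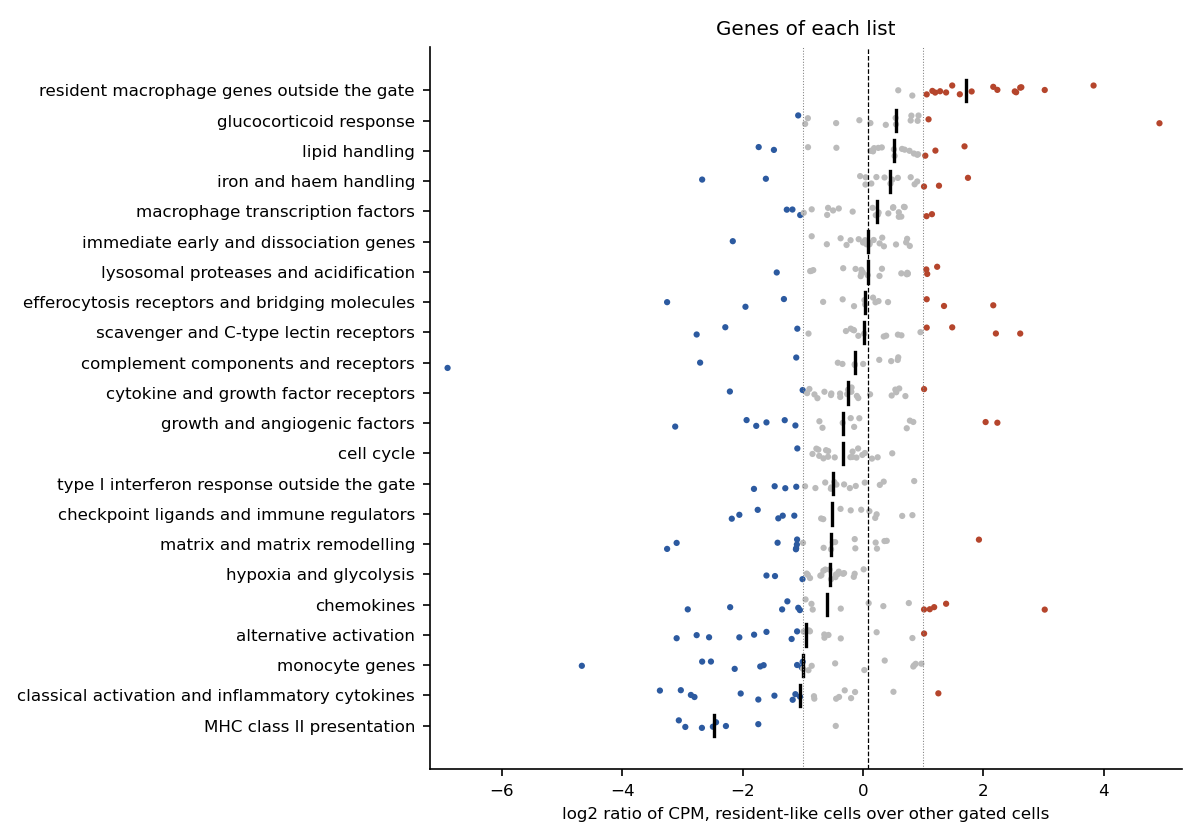
log2 ratio of CPM, resident-like cells over other gated cells (x axis), of each gene that entered in 22 lists (rows), with genes above in red, genes below in blue, the rest in grey and the list median as a black bar. The dashed line is the median of all genes (0.08) and dotted lines mark 2-fold; resident macrophage genes lie farthest right (median 1.71) and MHC class II genes farthest left (-2.47), and the outlying point of the glucocorticoid list is the gate gene Cd163.

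Ccl8 and most resident macrophage genes were also above against each of 4 other myeloid sets. Within the other gated cells, 693 held 1% or more of their UMIs in Arg1, Ccl24 and Spp1, 1136 held 3 or more UMIs of Cx3cr1, Adamdec1 and Trf, and 311 held 3 or more UMIs of Inhba, Nos2 and Slc7a2. These sets overlapped, by 427, 153 and 200 cells. A further 1147 cells under the C1q gate held 3 or more UMIs of Ccr2 and Vcan. The genes that define a set are no finding for it. Genes above in resident-like cells numbered 407 of 7066 (5.76%) against the Arg1 set, 433 of 7869 (5.5%) against the Cx3cr1 set, 468 of 6456 (7.25%) against the Inhba set and 484 of 8007 (6.04%) against the Ccr2 Vcan set. Genes below were 4.39%, 5.15%, 4.76% and 11% in the same order.

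Ccl8 stood at 2681 CPM in resident-like cells, against 45.6 in the Arg1 set, 82.4 in the Cx3cr1 set, 102 in the Inhba set and 85.6 CPM in the Ccr2 Vcan set. Ednrb stood at 592 CPM against 40.9, 30.4, 43.7 and 119 CPM in the same 4 sets, and Cd36 at 457 CPM against 63.3, 30.2, 50.5 and 107 CPM. Cd74 was lower in resident-like cells than in any of the 4, at 190.4 CPM against 659, 1023, 1499 and 757 CPM. Il1b stood at 329 CPM against 2723, 2807, 3127 and 2545 CPM.

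Resident macrophage genes counted as above in 16 of 18, 16 of 18, 17 of 18 and 15 of 18 against these sets. The exception against the Ccr2 Vcan set was Igf1, at 42.4 CPM in resident-like cells and 138 CPM in that set, where it was the 1 list gene below. Gas6 was closer as well, at 359.9 CPM against 131 CPM. Hmox1 stood at 1822 CPM in resident-like cells, against 926 CPM in the Arg1 set, 499 in the Cx3cr1 set, 861 in the Inhba set and 631 CPM in the Ccr2 Vcan set. Cx3cr1 itself stood at 43.8 CPM in resident-like cells, above the 27.7 CPM of the Ccr2 Vcan set and below the 195 and 120.2 CPM of the Arg1 and Inhba sets.

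**Figure D5:**
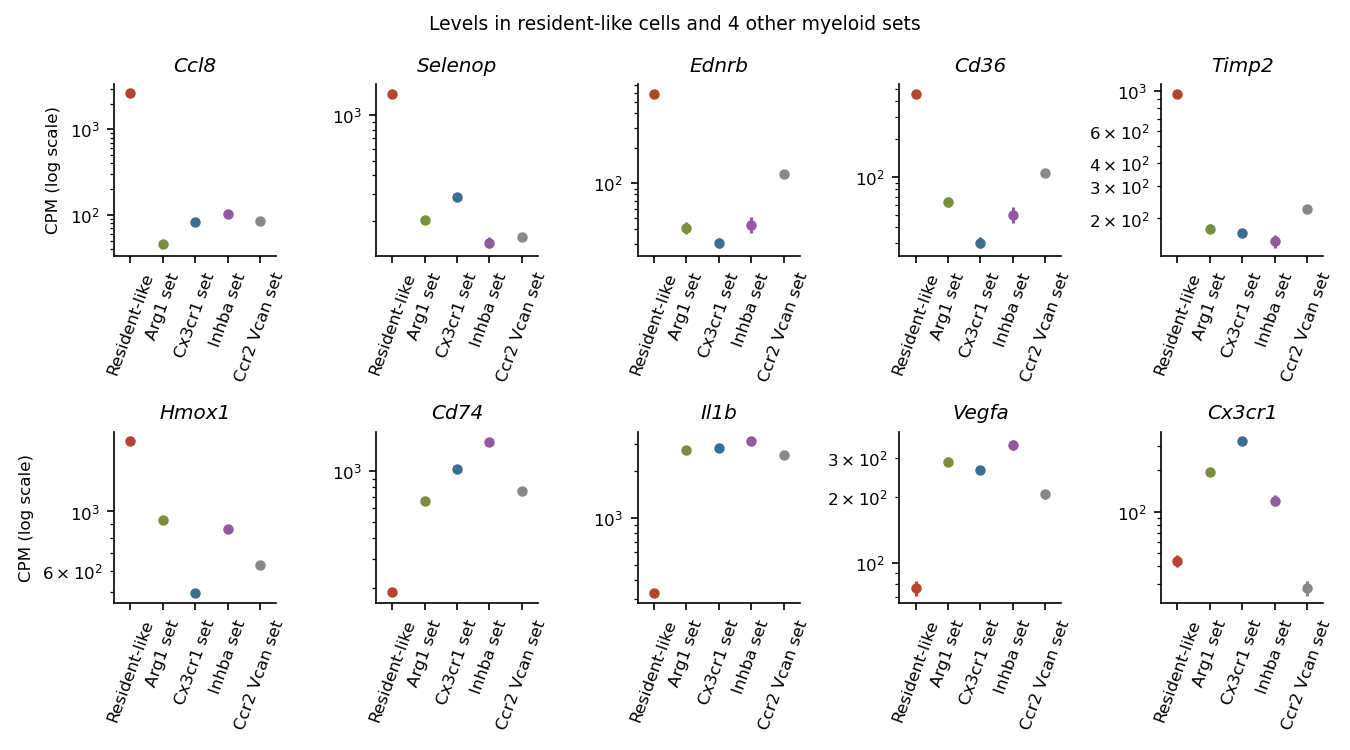
Levels in CPM (y axes, log scale, each with its own range) of 10 genes in the 910 resident-like cells and in 4 other myeloid sets (x axes), with exact Poisson 95% intervals that are mostly smaller than the points. Ccl8, Selenop, Ednrb, Cd36, Timp2 and Hmox1 are highest and Cd74, Il1b and Vegfa lowest in resident-like cells, while Cx3cr1, a gene that defines one of the sets, is lowest in the Ccr2 Vcan set.

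Resident-like cells were also set against the 15 cells removed only by the interferon limit. Of the resident macrophage genes, 3 of 18 were above and none below, beside 7.61% and 4.59% of 5557 genes. Ccl8 stood at 2681 CPM in resident-like cells and 3889 CPM in the 15, and Cd5l at 71.4 and 70.3 CPM. H2-Aa stood at 91.1 CPM in resident-like cells and 595 CPM in the 15, a ratio of 0.15. The 15 cells held 184894 UMIs in all, and their Cd5l came from 13 UMIs in 1 cell, so its level there cannot be compared.

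Within the resident-like cells, members with Lyve1 differed from those without it in few genes. The 246 members with Lyve1 had a median of 9789.5 UMIs, and the 664 without it 8202. Of 5498 genes with enough UMIs, 14 (0.255%) were above and 21 (0.382%) below in members with Lyve1. Ltc4s stood at 385 CPM with Lyve1 and 94.5 CPM without (ratio 4.07; 3.66 to 4.53) and Cbr2 at 226 and 74.5 CPM (ratio 3.03; 2.67 to 3.44). Fcna, the lectin ficolin A, stood at 70.9 and 26.9 CPM (ratio 2.63; 2.11 to 3.28) and Hdac9, a histone deacetylase, at 304 and 131 CPM (ratio 2.33; 2.10 to 2.58). Below were Vegfa (43.8 and 90.4 CPM), Il1b (191 and 387 CPM), Cxcl3 (81.5 and 192 CPM), Fabp5 (474 and 1081 CPM) and Mmp12 (11.1 and 38.4 CPM). Cd74 was also lower without reaching 2-fold, at 120.4 CPM with Lyve1 and 219 CPM without, whereas Ccl8 was nearly level, at 2438 and 2782 CPM.

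Cd163 divided the members another way. Members had to hold 3 UMIs of the 3 gate genes together, so a member without 1 of them is high in the others by construction. Only 4 members held Lyve1 alone, so nearly all members without Cd163 held Folr2, and nearly all without Folr2 held Cd163. The Cd163 and Folr2 splits are therefore not independent. With few UMIs of these genes per cell, a gene may also be missed. The 575 with Cd163 had a median of 7970 UMIs and the 335 without it 9431, and 12 genes (0.218%) were above and 26 (0.473%) below. Ccl8 stood at 3573 CPM with Cd163 and 1370 CPM without (ratio 2.61; 2.52 to 2.69), Pdgfc at 300 and 146 CPM (ratio 2.06; 1.86 to 2.28) and Nrg1, the growth factor neuregulin 1, at 199.7 and 97.9 CPM (ratio 2.04; 1.80 to 2.32). Ppbp, a platelet chemokine, stood at 68.2 and 8.92 CPM (ratio 7.64; 5.25 to 11.5). Below were Cx3cr1, at 28.1 and 66.9 CPM, Cd9, at 81.1 and 207 CPM, and 5 of 14 cell cycle genes. Cycling cells made up 4.70% of members with Cd163 (3.12 to 6.76%) and 11.04% of those without (7.90 to 14.9%). Cbr2 and H2-Aa lay near equal, with ratios of 0.923 and 1.13.

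The 106 members without Folr2 were far shallower, with a median of 4813.5 UMIs against 9153.5 in the 804 with it, and the part of depth in what follows was not tested. In members with Folr2, 77 genes (1.4%) were above and 34 (0.618%) below. Cd5l stood at 76.6 CPM with Folr2 and 3.37 CPM without. Folr2 was found in 121 of the 123 members with Cd5l (98.4%) and in 683 of the 787 without it (86.8%). Lpl, lipoprotein lipase, stood at 55.2 and 6.74 CPM (ratio 8.19; 3.18 to 30.2) and Ltc4s at 190.0 and 47.2 CPM (ratio 4.02; 2.77 to 6.08). Hmox1 was below, at 1697 CPM with Folr2 and 3440.3 CPM without (ratio 0.493; 0.471 to 0.517), and so was Cxcl5, a chemokine that draws neutrophils, at 17.3 and 130 CPM. Cycling cells made up 7.84% of members with Folr2 and 0.943% (1 of 106) of those without.

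The 123 members with Cd5l were compared with the 787 without it, a split chosen after the values were seen. Their median depths were 9004 and 8661 UMIs, and 23 genes (0.418%) were above and 170 (3.09%) below. Lpl stood at 179 CPM with Cd5l and 30.9 CPM without (ratio 5.79; 4.77 to 7.02), Clec10a at 532 and 124 CPM (ratio 4.30; 3.87 to 4.77), Cd36 at 1179 and 338 CPM (ratio 3.49; 3.27 to 3.73) and Ednrb at 1414 and 456 CPM (ratio 3.10; 2.92 to 3.29). Several of the highest genes of the resident-like cells were thus higher in these 123. Below were Arg1 at 140 and 844 CPM (ratio 0.165; 0.141 to 0.193), Fn1, fibronectin, at 439.7 and 1578 CPM (ratio 0.279; 0.255 to 0.304) and H2-Aa at 28.9 and 101 CPM (ratio 0.285; 0.196 to 0.402). Stab1, a resident gene above in the members as a whole, was below here, at 162 and 343 CPM.

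Markers of other cell types were counted in the members. The 10 fibroblast markers, all detected, summed to 404 CPM in resident-like cells and 330 CPM in other gated cells, and 193 members (21.2%) held 3 or more of their UMIs. A single member held 1888 of the 3358 UMIs, the next 21, and without that cell the level was 177 CPM. In the splits above, collagen genes and Sparc moved with that cell (Col1a2 at 106 CPM with Cd163 and 23.5 CPM without, ratio 4.5; without members holding 3 or more fibroblast marker UMIs, 0.96), and they are left out of the accounts above for that reason.

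Lymphatic endothelial markers, which matter because of Lyve1, summed to 505 CPM in resident-like cells and 376 CPM in other gated cells, but 4192 of the 4195 UMIs in members were Pdpn, which macrophages also express. The defining genes Prox1, Mmrn1 and Reln were at 0 in the members. Tumour epithelial markers (11 of 11 detected) summed to 74.1 CPM in resident-like cells and 83.2 CPM in other gated cells, T and NK cell markers (9 of 11 detected) to 10.5 and 4.29 CPM, B cell markers to 18.7 and 28.0 CPM, dendritic cell markers to 12.5 and 13.4 CPM and osteoclast markers to 453 and 628 CPM. Of the 3761 osteoclast marker UMIs in members, most were Mmp9, with 217 in members with Cd5l and 2584 in those without. Mmp9 is also on the neutrophil list. Blood endothelial markers summed to 41.3 and 43.9 CPM, mast cell and basophil markers to 3.25 and 1.98 CPM and red cell markers to 17.8 and 25.4 CPM. In the top 5% of doublet scores over all kept cells lay 41 of the 910 resident-like cells (4.51%) and 142 of the 2664 other gated cells (5.33%).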

How the data were processed

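The PCN library was read as raw UMI counts per gene and barcode, deposited by the authors. Cell Ranger 8.0.1 had made them, per the file headers, and the submitters' processing notes list it with STAR. Genome build: not given in the sources used here. All 10835 PCN barcodes of the authors' deposited cell list were in the matrix, against 37 of 11643 PBS barcodes, of which 33 are also PCN barcodes, so the matrix was taken as the PCN library. Kept cells had a median of 3575 UMIs. The members and gene lists were chosen with earlier results of these data known.

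UMIs were summed per set with Python 3.11.15, numpy 2.4.6 and scipy 1.17.1; 26 symbols with more than 1 row were summed. A gene entered with 200 UMIs over both sets, and 0.5 counts were added to each sum for log2 ratios. The genes named are the 6 markers, the 25 highest and 15 lowest ratios and up to 4 genes per list with the largest ratios in either direction. The highest and lowest ratios were ranked without gate genes and without mitochondrial, ribosomal protein, immunoglobulin, T cell receptor segment and predicted genes. Other named genes were chosen after their values were seen. The ratio step was tested on simulated data. Scrublet in scanpy 1.11.5 called 0 doublets at its own threshold and so had not worked; leaving out the top 5% of scores was an alternative. Free RNA was not subtracted.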

Additional observations from a re-analysis of the deposited data

Results flagged for a closer look

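Of the 1474 barcodes that the authors left out, 93 pass the rule for resident-like cells, and the comparisons do not use them. Of these 93, 87 have 20000 or more UMIs and 6 have 10% or more mitochondrial UMIs, and their median is 25167 UMIs. The deepest resident-like cells are therefore missing from the description. With all barcodes there are 1003 resident-like cells in place of 910 and 2972 other gated cells in place of 2664. Barcodes of both sets were thus left out, and the 93 are not particular to the resident-like cells.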

How the results depend on the processing

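The number of resident-like cells was 595 with a gate of 5 UMIs, 412 with a gate of 0.1% of UMIs, 599 with UMIs of at least 2 of the 3 genes and 552 with a C1q and Apoe gate of 1%, against 910, fewer by construction. Genes above were 150 with equal weight per cell, 414 with a minimum of 50 UMIs per gene and 120 with a minimum of 1000, against 237. Genes below were 593 with the 0.1% gate, 658 with the minimum of 50 and 185 with that of 1000, against 380. The minimum changes how many genes enter; for the other 2 the cause was not tested. Under the 0.1% gate the median log2 ratio was -3.31 for MHC class II and -1.04 for the cell cycle, and that of Fabp4 was -1.96; 1 cell holds 31.8% of the member UMIs of Fabp4. The other 306 of 308 list medians moved by less than 1.5 times. Other gated cells of matched depth gave 229 genes above and 290 below, and other gated cells with 0 gate UMIs, chosen after seeing the data, 355 and 401; leaving out cells with 3 or more fibroblast marker UMIs, also chosen then, gave 220 and 361. Of up to 14 alternatives with a value, the 2-fold call was lost under 9 for Ccr2, 7 for Fabp4, 5 (of 8) for Pparg, 4 for Hilpda, 3 each for Hmgb2, Sgk1, Ctsd and Ctsl, 2 each for Maf, Tsc22d3, Cfb and Ifit3, and 1 each for Runx3, Il4ra, Mmp13, Acp5, Ctsb and Ifit2. Under the 0.1% gate 33 named genes moved by over 1.5 times, among them Il1b (log2 ratio -3.64 in place of -2.86), Il1a (-4.23 in place of -2.80), H2-Aa (-3.32 in place of -2.68), Cx3cr1 (-3.42 in place of -2.21), Mmp12 (-4.65 in place of -3.09) and the gate gene Folr2 (2.46 in place of 3.22). No paired analysis was possible because counts of 1 library were analysed and no comparison has replicates. The depth limits genes under 200 UMIs, such as Timd4.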
